A study of Salmo salar with 16 samples.

Results

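Spleens of Atlantic salmon carried transcripts of 36 antioxidant and detoxification enzyme genes, and none of them passed the test for a difference between diets. Of all genes tested, 0% to 0.992% passed in each of the 7 comparisons, so this result does not set the 36 apart. The genes were chosen by symbol. Of 79141 features in the count tables, 38 had a symbol that starts like those of superoxide dismutases, peroxiredoxins other than prdx1, glutathione peroxidases, thioredoxin proteins, glutathione enzymes, methionine sulfoxide reductases, cytochromes P450 of families 1 to 4, aldehyde dehydrogenases, aldo-keto reductases and their kin, and 36 of these reached 0.5 CPM (counts per 1000000 counts of the library) in at least 4 of the 16 fish, as 33990 features of the whole tables did. The other two were gpx2, with 3 counts over all fish, and a cyp1a copy with 18 counts, which reached the cut in 1 fish. Just inside the cut were akr1d1, which reached it in 10 fish with 99 counts in all, and msrb2, which reached it in 11 fish with 153 counts. No symbol matched for glutamate-cysteine ligase, NAD(P)H quinone dehydrogenase, heme oxygenase, Keap1, metallothionein, the UDP-glucuronosyltransferases or the sulfotransferases. Only 8305 of the features have an identifier that starts neither with LOC, which marks a bare locus number, nor with trn. Copies named only by a locus number were therefore not counted among the 36 genes.

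RNA of 16 spleens was sequenced after 37 days of feeding, with 1 library per fish and 4 fish per diet. FM was the fishmeal control and SBM contained soybean meal at 40%, while ICJ and ACJ contained soybean meal at 40% plus 5% of the yeast Cyberlindnera jadinii, heat-inactivated in ICJ and autolysed in ACJ. By the paper's formulation, FM also had more fishmeal, cellulose, wheat gluten and starch than the other diets, and no added lysine, methionine or phosphate. The yeast diets had less wheat gluten and starch than SBM. Soybean meal and yeast therefore cannot be told apart from these other ingredients. The fish came from duplicated tanks, and since the labels do not name the tank of each fish, diet and tank cannot be told apart. The libraries held 5032593 to 9100203 counts, so that 3 counts, the upper limit that a count of 0 allows, correspond to 0.330 to 0.596 CPM.

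These enzymes act in sequence on reactive oxygen and on reactive chemicals. Superoxide dismutases turn superoxide into hydrogen peroxide, which peroxiredoxins and glutathione peroxidases reduce with electrons from thioredoxin and glutathione, and reductases then recharge both carriers with NADPH. Cytochromes P450 oxidise foreign and endogenous compounds, glutathione transferases couple electrophiles to glutathione, and aldehyde dehydrogenases and aldo-keto reductases clear reactive carbonyls. Many of the genes respond in vertebrates to the transcription factors Nrf2 and the aryl hydrocarbon receptor. The spleen, which filters blood and breaks down old red cells, is exposed to heme iron and to the peroxides it can form.

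Some of the genes share a symbol with the families more than a function. Txnip encodes a protein that binds and inhibits thioredoxin in mammals, txnl4b encodes a thioredoxin-like splicing protein, and aldh6a1 and aldh7a1 encode enzymes of valine and lysine breakdown. They stay in the counts below because the choice was made by symbol.

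**Figure D1:**
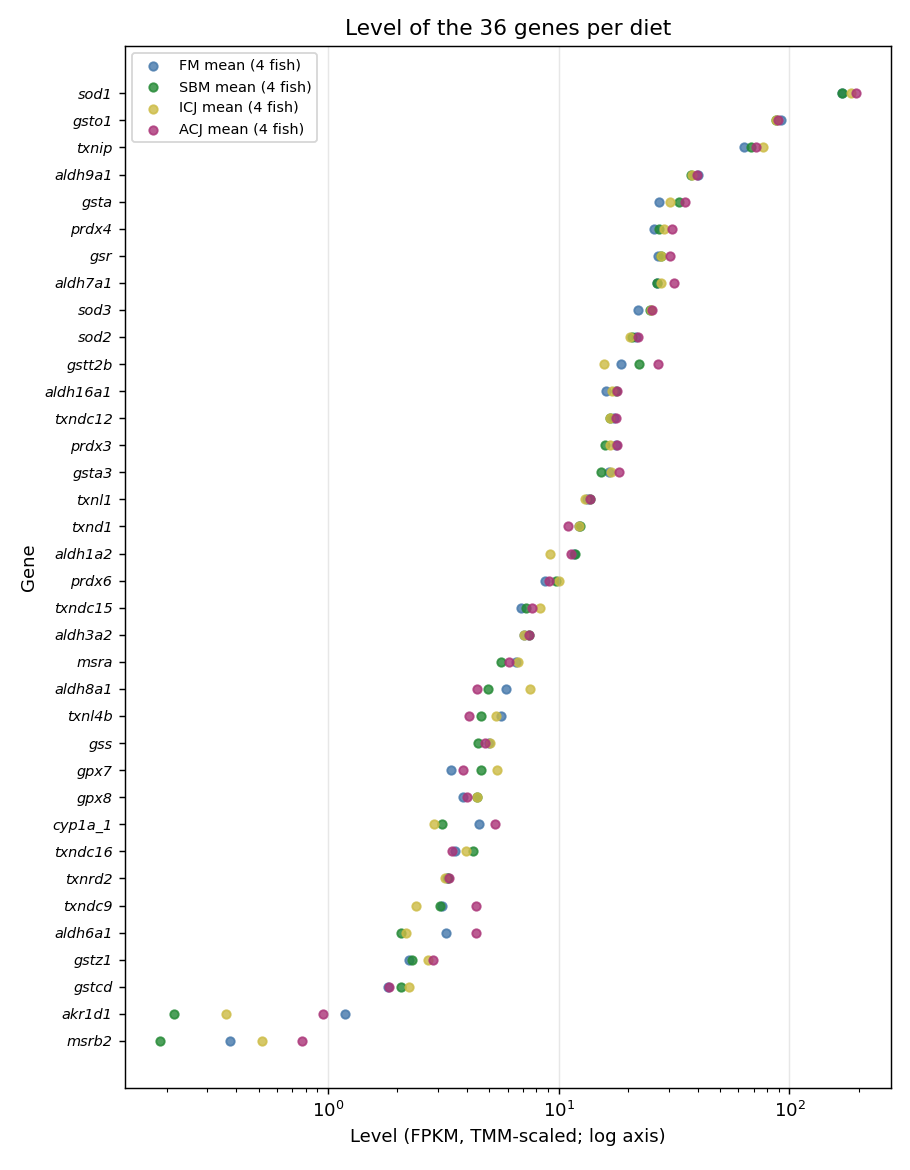
Level of each of the 36 genes as FPKM (CPM per 1000 bases of exon, logarithmic x axis), one row per gene, with a point for the mean of the 4 fish of each diet. The order runs from sod1, at 179 FPKM over all fish, down to msrb2, at 0.463 FPKM, and for most genes the points of the diets lie close together.

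Levels between genes are compared per length, as FPKM from the scaled counts and the exon lengths in the tables. The cytosolic copper-zinc dismutase sod1 was the highest, at 179 ± 15.9 FPKM (SD, n = 16), and made up 24.2% of the summed FPKM of the 36 genes. It lies on chromosome 11 at 89499738 to 89506195 of the ICSASG_v2 genome. The manganese enzyme of the mitochondrion, sod2, was at 21.2 FPKM and the extracellular sod3 at 24.4 FPKM. Among the glutathione transferases, gsto1, of the omega class, reached 89.1 FPKM, ahead of gsta at 31.5 and gstt2b of the theta class at 20.8 FPKM.

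The thioredoxin group was led by txnip at 69.9 FPKM, and its next member, txndc12, a thioredoxin domain protein of the endoplasmic reticulum, was at 17.1 FPKM. Glutathione reductase, gsr, which regenerates glutathione, was at 28.2 FPKM and glutathione synthetase, gss, at 4.82 FPKM. Of the peroxiredoxins, prdx4 of the endoplasmic reticulum was at 28.2, prdx3 of the mitochondrion at 17.1 and prdx6 at 9.37 FPKM. The aldehyde dehydrogenases were led by aldh9a1 at 38.8 and aldh7a1 at 28.1 FPKM. The glutathione peroxidase-like proteins gpx7 and gpx8 were lower, at 4.31 and 4.17 FPKM, as was cyp1a_1, the cytochrome P450 1A gene that the aryl hydrocarbon receptor induces, at 3.96 FPKM. In all, 11 genes had a mean above 20 FPKM, and 2, akr1d1 and msrb2, were below 1 FPKM.

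The spread from fish to fish was mostly less than 2-fold. For 23 of the 36, the highest of the 16 fish was less than 2 times the lowest. The SD of log2 CPM within diets had a median of 0.19 over the 36 genes, beside 0.24 over all 28930 genes tested. It was below 0.2 for 18 of the 36. The shares of all genes below 2-fold and below an SD of 0.2 were not computed, so these counts do not set the 36 apart. It was lowest for aldh9a1, at 0.07. Fish differed most in msrb2, with an SD of 1.17, then in akr1d1, aldh6a1, cyp1a_1, aldh8a1 and gstz1, with SDs from 0.51 to 0.92.

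**Figure D2:**
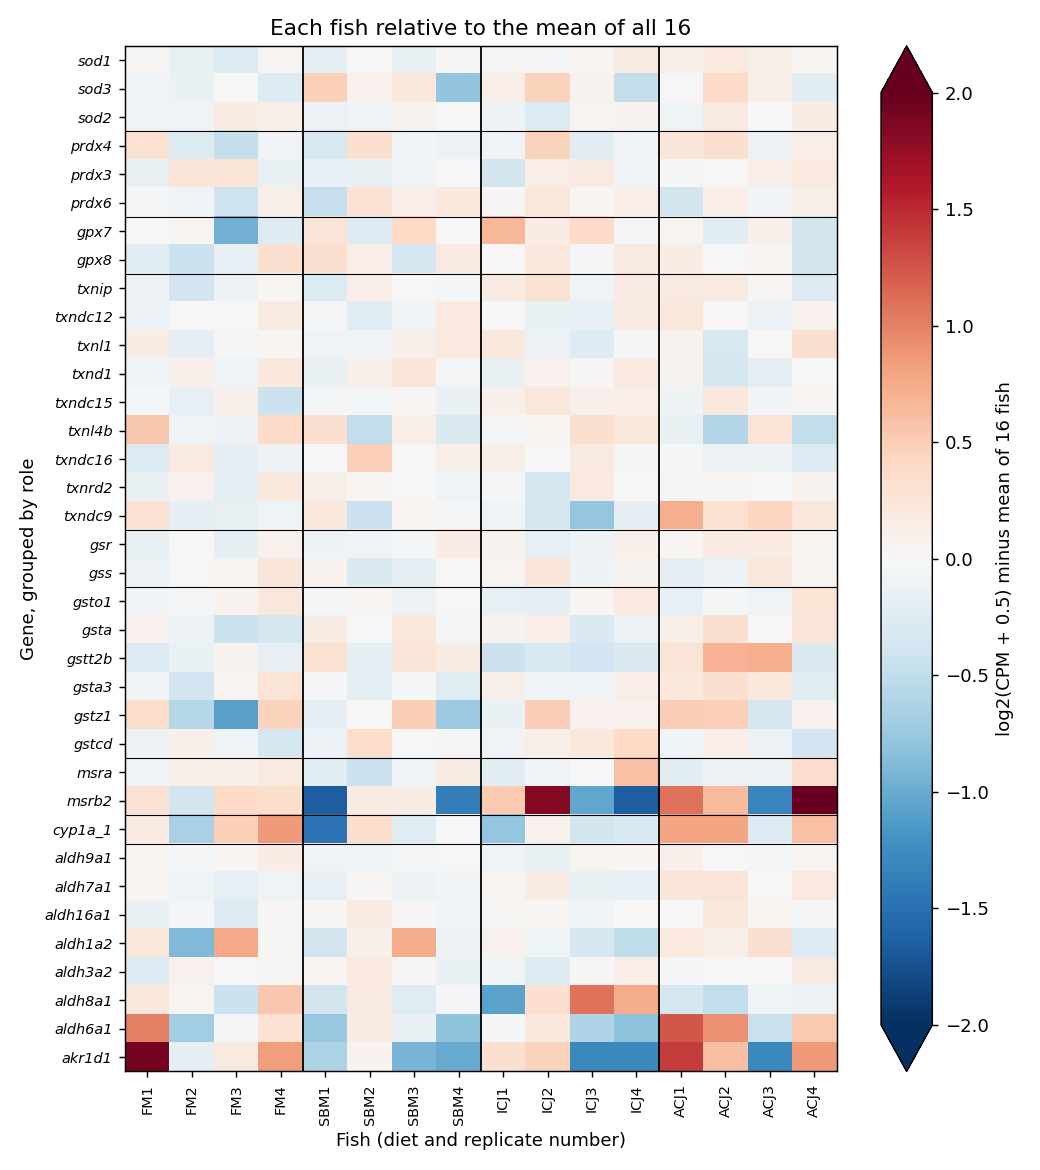
Each of the 36 genes (rows, grouped by role) in each of the 16 fish (columns, by diet), as log2(CPM + 0.5) minus the mean of all fish. Most rows are pale, with values within the spread of single fish, and the strongest colours are in msrb2 and akr1d1, genes that had 0 counts in 2 and 3 fish.

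The first question was whether expression of these genes differed between FM and the soybean meal diets, without or with yeast, and among the latter. All 36 passed the filter on low counts and were tested by the quasi-likelihood method of edgeR, and p values were adjusted over 28930 genes after Benjamini and Hochberg. With adjusted p below 0.05 as the call, 0 of 36 were called in FM|SBM, where 0.432% of all genes were, 0 in ICJ|FM (0.0104% of all genes) and 0 in ACJ|FM (0.235%). In ICJ|SBM, ACJ|SBM and ACJ|ICJ, 0 of the 36 genes and 0% of all genes were called. Against FM, the mean of the 3 soybean diets, written soybean|FM, also gave 0 calls among the 36, beside 0.992% of all genes. DESeq2 and edgeR's likelihood ratio test called 0 of the 36 in each of the 7 comparisons. Over all 28930 genes, DESeq2 called 737 in FM|SBM, 100 in ICJ|FM, 472 in ACJ|FM and 869 in soybean|FM. It called 6 in ICJ|SBM, 5 in ACJ|SBM and 5 in ACJ|ICJ. In the same order, the likelihood ratio test called 327, 9, 212, 473, 2, 2 and 4.

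At an unadjusted p below 0.05, edgeR's quasi-likelihood test found 2 of the 36 genes in FM|SBM, where 14.7% of all genes were under that mark. The number was 3 in ICJ|FM (background 9.26%), 5 in ACJ|FM (14.9%) and 1 in soybean|FM (16.5%). Among the soybean diets it was 1 in ICJ|SBM (5%), 4 in ACJ|SBM (6.9%) and 6 in ACJ|ICJ (5.67%). The FM comparisons share the FM fish and the others share fish as well, so these counts are not independent of each other.

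The medians stayed close to 0. In FM|SBM the median log2 fold change, first diet over second, was -0.01 over the 36 genes, with 15 positive and 21 negative values, beside 0.01 over all genes. In ACJ|FM it was 0.08, with 26 positive and 10 negative values, and in ACJ|SBM 0.08, with 25 positive and 11 negative values, while the medians over all genes in both comparisons were 0.00 after rounding. In ACJ|ICJ it was 0.07, beside -0.01 over all genes.

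The intervals say how large a difference could have been missed. In FM|SBM the 95% interval lay wholly within a 1.5-fold change for 23 of the 36 genes, or 63.9%, beside 51.8% of all genes tested. In ACJ|FM the same was true of 22 genes, 61.1%, beside 51.3% of all genes, and in soybean|FM of 26, or 72.2%, beside 61.8%. In all 7 comparisons together, 18 of the 36 genes had every interval within 1.5-fold, among them sod1, sod2, prdx3, prdx6, gsr, gss, gsto1, txnrd2, the mitochondrial thioredoxin reductase, and aldh9a1. The share of all genes for the 7 together was not computed, so this count does not set the 36 apart. For gsr, FM fish had 63.9 ± 5.68 CPM and SBM fish 66.0 ± 5.52 CPM (SD, n = 4 each), a log2 fold change of -0.05 with an interval of -0.22 to 0.13. The intervals were wide for msrb2, from -1.54 to 3.64 in FM|SBM on the log2 scale, and for akr1d1, from 0.26 to 4.68, the genes with the largest SDs within diets.

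**Figure D3:**
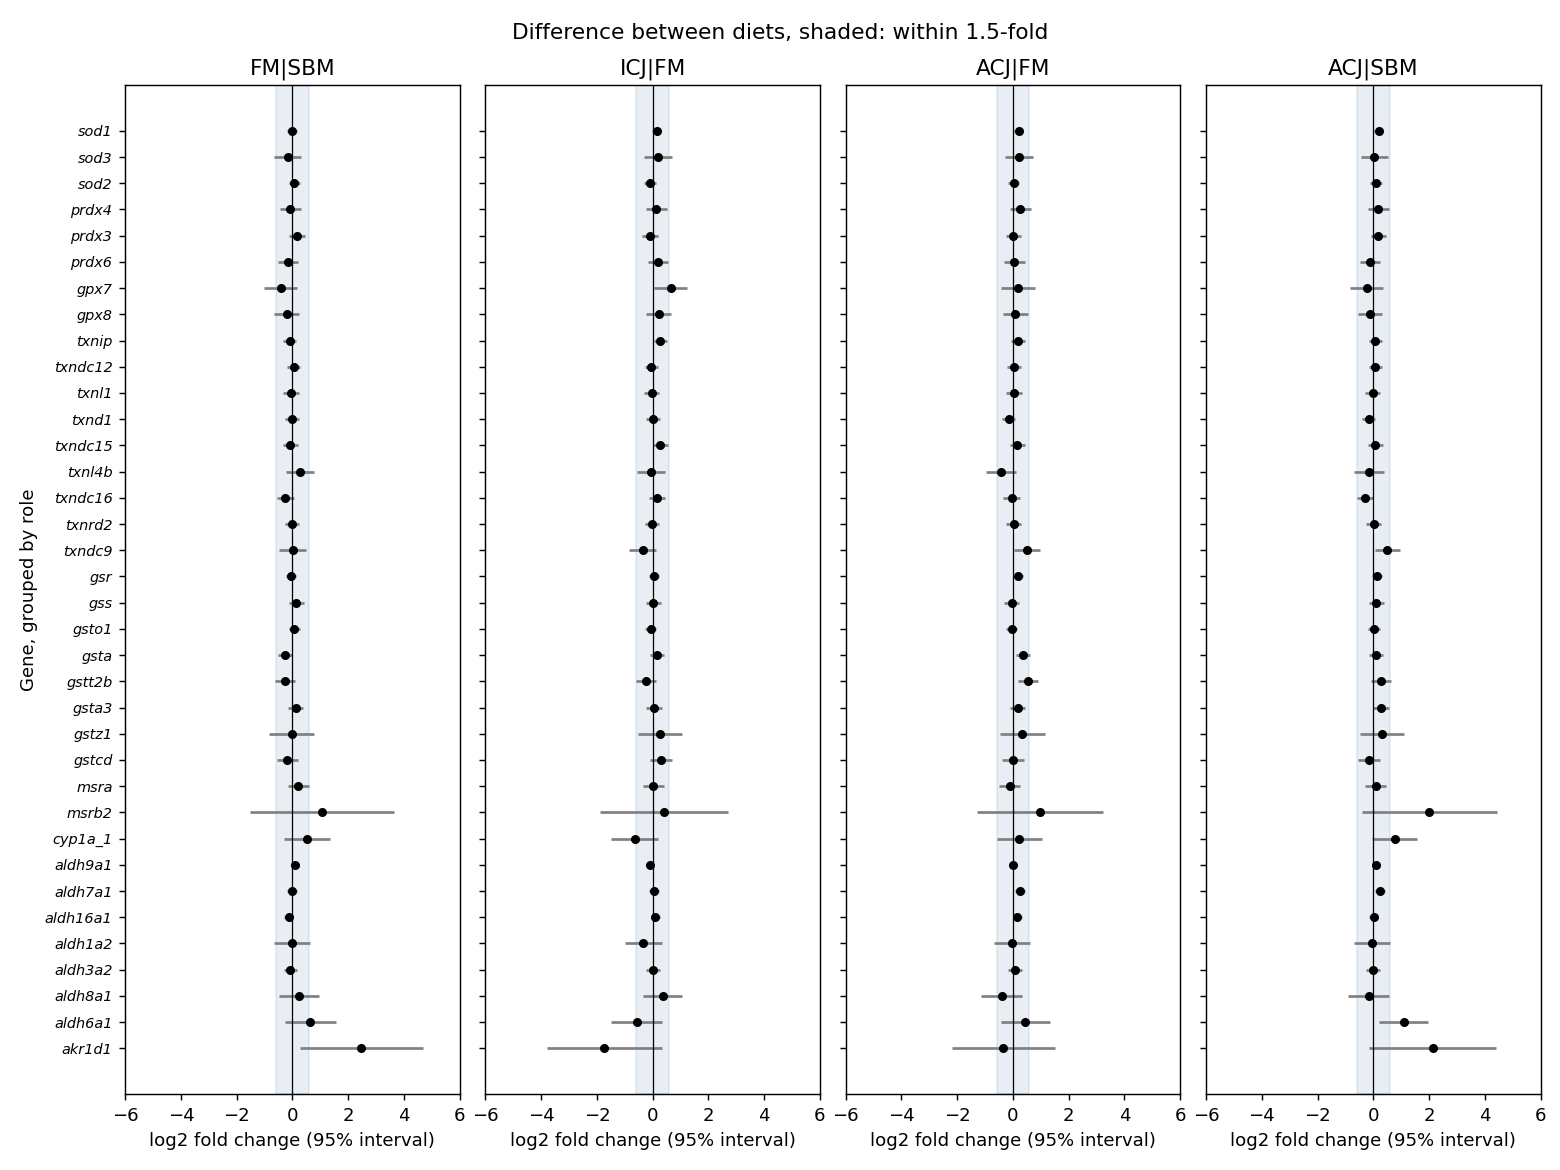
Log2 fold change with its 95% interval (points and bars, from edgeR's quasi-likelihood fit of 16 fish) for the 36 genes, grouped by role, in FM|SBM, ICJ|FM, ACJ|FM and ACJ|SBM. The shaded band marks changes of less than 1.5-fold, which holds the whole interval of 23 genes in FM|SBM and of 22 in ACJ|FM, while the bars of msrb2 and akr1d1 are the widest.

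Gsta, a glutathione transferase gene on chromosome 14 (89639661 to 89644543, reverse strand), was the member nearest to a call in FM|SBM and in soybean|FM. Its 4 FM fish were at 37.0, 32.3, 25.8 and 27.2 CPM, and its SBM fish at 38.7, 34.8, 40.9 and 34.4 CPM. In ICJ the values were 36.6, 38.6, 28.5 and 32.2 CPM, and in ACJ 38.0, 43.7, 35.3 and 41.8 CPM. FM held the lowest fish, but FM replicate 1 lay within the range of every other diet, so no pair of diets was fully apart. The log2 fold change was -0.28 ± 0.12 (SE) in FM|SBM (edgeR, adjusted p = 0.277), 0.37 ± 0.12 in ACJ|FM (adjusted p = 0.159) and 0.27 ± 0.10 in soybean|FM (adjusted p = 0.183). Without FM replicate 1, gsta was called in ACJ|FM, at 0.49 (edgeR, adjusted p = 0.0467). That fit called 550 of all 29384 genes in ACJ|FM, beside 68 of 28930 with all fish.

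Values of red cell genes are given beside those of gsta. The 9 tested genes of a 10-gene erythrocyte list all had positive log2 fold changes in FM|SBM, with a median of 1.16. By edgeR's quasi-likelihood test 0 of them were called (background 0.432%), and 8 had an unadjusted p below 0.05 (background 14.7%). The summed level of the list was 21664 to 43588 CPM in FM, 9435 to 16595 in SBM, 8631 to 37103 in ICJ and 20580 to 23725 CPM in ACJ. One defining gene, hbae, was at 0 in all fish. The globin level is the mean log2(CPM + 0.5) of hba, hbb1, LOC106607372, LOC100136576 and LOC106607112, with equal weight for each. Low genes thus count as much as high ones: hba had a median of 1.16 CPM, with 60.3 CPM in FM replicate 3, and LOC106607372 a median of 9485 CPM. Within diets, the slope of gsta on the globin level was -0.19 ± 0.06 log2 units (SE) per log2 unit, which was not called (edgeR, adjusted p = 0.149). With the globin level in the model, the FM|SBM difference of gsta was -0.05 in place of -0.28, and that in soybean|FM 0.11 in place of 0.27. Its ACJ|FM difference, 0.37 with diet alone, ranged from 0.26 to 0.49 over all 18 alternatives, the globin level among them. The mean log2 globin level was 8.94 in FM and 7.66 in SBM, with no overlap of the fish. By an exact two-sided permutation test its p was 0.0286, and 0.172 when adjusted. No smaller p is possible with 4 fish against 4, so the adjusted value says little about this separation. The ACJ fish, with a mean of 8.26, also did not overlap the SBM fish, and the test gave the same p values in ACJ|SBM. Globin level and diet therefore cannot be told apart in FM|SBM or in ACJ|SBM, for gsta or any other gene. In bulk tissue, fewer cells of a type and less RNA per cell cannot be told apart.

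For the globin level, edgeR's quasi-likelihood test called 0 of the 36 genes, beside 1.97% of all genes. With p below 0.05 before adjustment, it found 5 of the 36. The share of all genes at that mark was not computed, so these 5 do not set the 36 apart. Gsto1 and sod2 had positive slopes of 0.15 and 0.14, and prdx4 and aldh7a1 negative ones of -0.25 and -0.12. With the globin level in the model, 0 of the 36 genes were called in any comparison. Over all 28930 genes, that model called 2 in FM|SBM, 2 in ICJ|FM, 3 in ACJ|FM and 8 in soybean|FM. Without the globin level these counts were 125, 3, 68 and 287. Both models called 0 genes in each of the other comparisons.

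Gstt2b, a theta class transferase on chromosome 11 (44638560 to 44643226, reverse strand), had the smallest unadjusted p of the 36 genes in ACJ|ICJ, in ACJ|FM and in ICJ|SBM. Its ICJ fish were tightly grouped at 17.4, 19.0, 18.1 and 19.2 CPM. The FM fish were at 19.4, 21.6, 24.9 and 21.1 CPM, and the SBM fish at 29.5, 20.6, 28.1 and 26.1 CPM. The ACJ fish were at 28.3, 38.8, 39.3 and 19.3 CPM. All ICJ fish were below all fish of the other diets, but ACJ replicate 4 cleared the highest ICJ fish only narrowly and lay below every FM fish.

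In ACJ|ICJ the log2 fold change of gstt2b was 0.78 ± 0.17 (SE), a ratio of 1.72, with an unadjusted p of 0.000254 but an adjusted p of 0.856 by edgeR's quasi-likelihood test. The smallest adjusted p among the 36 genes in that comparison was 0.0769 with DESeq2. In ACJ|FM gstt2b was at 0.54 ± 0.17 (edgeR, adjusted p = 0.154), in ICJ|SBM at -0.50 ± 0.17 (adjusted p = 0.967) and in ICJ|FM at -0.24 ± 0.17 (adjusted p = 0.714). Without ACJ replicate 4 it was called in ACJ|ICJ, at 0.96 (edgeR, adjusted p = 0.0367), and in ACJ|FM, at 0.72 (adjusted p = 0.0235). Of all 29367 genes, that fit called 1 in ACJ|ICJ and 221 in ACJ|FM. With all fish, 0 and 68 of 28930 genes were called in these comparisons.

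**Figure D4:**
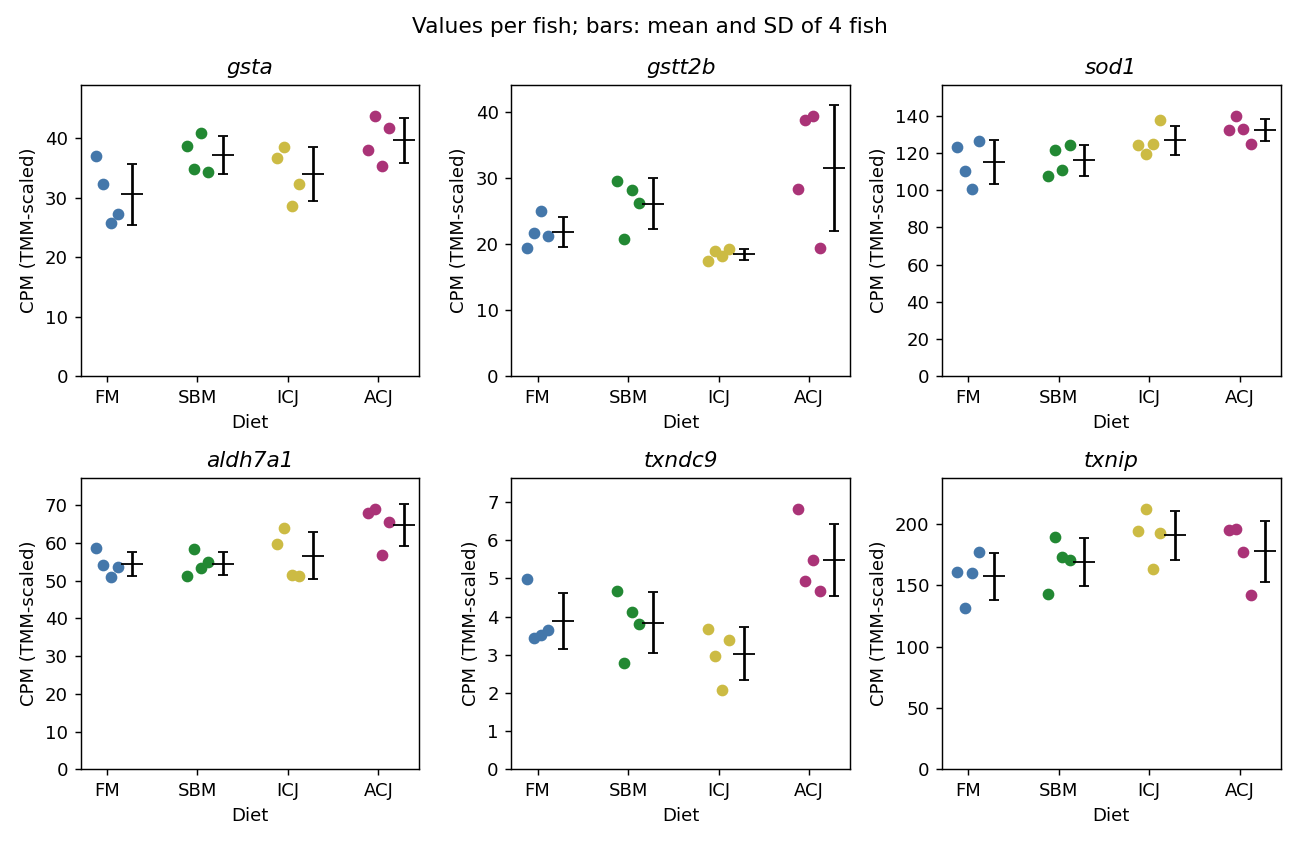
CPM of gsta, gstt2b, sod1, aldh7a1, txndc9 and txnip in each fish (points, by diet on the x axis), with the mean and SD of the 4 fish as bars and the y axis from 0. The ICJ fish of gstt2b lie between 17.4 and 19.2 CPM, below all other fish, and the ACJ fish of txndc9 lie above all ICJ fish.

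Sod1 was somewhat higher in both yeast diets by its means. Its FM fish were at 123, 110, 101 and 126 CPM, and its SBM fish at 107, 122, 111 and 124 CPM. The ICJ fish were at 125, 120, 125 and 138 CPM, and the ACJ fish at 132, 140, 133 and 125 CPM. Every ACJ fish was above every SBM fish, narrowly, while ACJ and FM overlapped. The log2 fold change was 0.19 ± 0.08 (SE) in ACJ|SBM (edgeR, adjusted p = 0.711), 0.20 ± 0.08 in ACJ|FM (adjusted p = 0.234) and 0.13 ± 0.08 in ICJ|SBM (adjusted p = 0.967), so none was called, and the interval in ACJ|SBM ended at 0.35.

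Aldh7a1, the alpha-aminoadipic semialdehyde dehydrogenase, had its highest mean in ACJ. FM fish were at 58.7, 54.1, 51.0 and 53.7 CPM and SBM fish at 51.1, 58.4, 53.2 and 55.0 CPM. ICJ fish were at 59.6, 63.8, 51.5 and 51.3 CPM, and ACJ fish at 67.9, 68.9, 56.8 and 65.6 CPM. In ACJ, 3 fish were above all fish of the other diets, and ACJ replicate 3 was within them. The log2 fold change was 0.25 ± 0.09 (SE) in ACJ|FM (edgeR, adjusted p = 0.185) and 0.25 ± 0.09 in ACJ|SBM (adjusted p = 0.701). With the level of the pancreatic protease genes tryp, ctrl and ctrb as a term in the model, the ACJ|SBM value was 0.12.

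In the thioredoxin group, the smallest adjusted p values were those of txndc9 in ACJ|FM (edgeR, 0.307) and of txnip in soybean|FM (edgeR, 0.338). Txnip was at 161, 131, 160 and 177 CPM in FM and at 194, 212, 163 and 193 CPM in ICJ. The SBM fish, at 143, 190, 173 and 170 CPM, and the ACJ fish, at 195, 195, 177 and 142 CPM, fell between and across these. In ICJ|FM the log2 fold change of txnip was 0.28 ± 0.11 (SE; edgeR, adjusted p = 0.459), with 3 of 4 ICJ fish above all FM fish.

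Txndc9, a thioredoxin domain gene at 3.24 FPKM, was at 3.66, 2.97, 2.08 and 3.39 CPM in ICJ and at 6.81, 4.94, 5.48 and 4.67 CPM in ACJ, with no overlap. FM fish, at 4.98, 3.43, 3.51 and 3.66 CPM, and SBM fish, at 4.67, 2.79, 4.11 and 3.80 CPM, spanned the gap. In ACJ|ICJ its log2 fold change was 0.86 ± 0.23 (SE; edgeR, adjusted p = 0.871). It was 0.50 ± 0.22 in ACJ|FM (adjusted p = 0.307) and 0.51 ± 0.22 in ACJ|SBM (adjusted p = 0.712), where the ranges overlapped.

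Txndc15 and txndc16, thioredoxin domain genes, were each apart in one pair of diets. Txndc15 was at 12.8 ± 0.525 CPM in ICJ and at 11.2 ± 0.555 CPM in SBM (SD, n = 4 each), with all ICJ fish higher. Its log2 fold change in ICJ|SBM was 0.19 ± 0.12 (SE; edgeR, adjusted p = 0.967). In ICJ|FM, where the ranges overlapped, it was 0.27 ± 0.13 (adjusted p = 0.534), and 0.17 without FM replicate 4. Txndc16 was at 8.96 ± 0.663 CPM in ACJ and at 11.1 ± 1.87 CPM in SBM, with all ACJ fish lower. Its log2 fold change in ACJ|SBM was -0.30 ± 0.14 (SE; edgeR, adjusted p = 0.728). FM fish were at 9.22 ± 1.36 CPM. In FM|SBM, where the ranges overlapped, the log2 fold change of txndc16 was -0.25 ± 0.14 (adjusted p = 0.433), and -0.14 without SBM replicate 2.

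Over the 36 genes, the 4 fish of one diet lay wholly above or below those of the other for 0 genes in FM|SBM, where 8.18% of all genes did so, for 1 in ICJ|FM (4.36% of all genes) and for 0 in ACJ|FM (7.05%). The count was 2 in ICJ|SBM (3.04%), 2 in ACJ|SBM (4.82%) and 2 in ACJ|ICJ (3.19%). The genes were gstt2b in ICJ|FM, gstt2b and txndc15 in ICJ|SBM, txndc16 and sod1 in ACJ|SBM, and gstt2b and txndc9 in ACJ|ICJ.

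The remaining genes named by their p values were low or uneven. Gpx7, a peroxidase-like protein of the endoplasmic reticulum, was at 2.85, 2.999, 1.23 and 2.33 CPM in FM and at 4.84, 3.30, 3.91 and 2.83 CPM in ICJ, a log2 fold change of 0.65 ± 0.28 (SE; edgeR, adjusted p = 0.490). The ranges overlapped, and FM replicate 3 was the lowest fish of all 16. Aldh8a1, an aldehyde dehydrogenase, ranged from 4.25 to 20.6 CPM within ICJ alone, and its log2 fold change in ICJ|SBM was 0.60 ± 0.33 (adjusted p = 0.967), and 0.30 without ICJ replicate 3. Aldh16a1 differed by 0.13 ± 0.06 in soybean|FM (adjusted p = 0.334), and by 0.08 without FM replicate 3.

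Akr1d1, aldh6a1 and msrb2 varied most between fish of the same diet. These spleens also differed widely in genes of the exocrine pancreas, an organ that is scattered in the fat around the gut of salmonids. The summed level of 3 such genes, tryp, ctrl and ctrb, which encode digestive proteases, ran from 936 to 6976 CPM in FM, from 0.566 to 3066 CPM in SBM, from 104 to 4422 CPM in ICJ and from 407 to 6825 CPM in ACJ. None of the 3 was at 0 in all fish, and ctrb was at 0 in SBM replicates 1 and 4. Gcg, the glucagon gene of the islets, ran from 0 to 149 CPM. The mean log2 level of the 3 proteases was 7.62 in FM and 4.29 in SBM, a difference that did not pass an exact two-sided permutation test (p = 0.2, and 0.457 when adjusted over 12 such tests of pancreatic and globin levels).

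Akr1d1, which encodes steroid 5-beta-reductase and lies on chromosome 10 (72162563 to 72165982), was at 4.09, 0.571, 0.877 and 1.66 CPM in FM and at 0.283, 0.776, 0.137 and 0.105 CPM in SBM. In ICJ it was at 1.03, 1.15, 0 and 0 CPM and in ACJ at 2.69, 1.35, 0 and 1.70 CPM. The 3 fish at 0 were ICJ replicates 3 and 4 and ACJ replicate 3, and FM and SBM overlapped. In FM|SBM its log2 fold change was 2.47 ± 1.04 (SE; edgeR, adjusted p = 0.280) and became 0.97 with the pancreatic level and 3.76 with the globin level in the model. In soybean|FM it was -1.52 ± 0.74 (adjusted p = 0.323), and became -0.92 with the pancreatic level, -2.49 with the globin level and -0.73 without FM replicate 1.

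Aldh6a1, methylmalonate-semialdehyde dehydrogenase of valine breakdown, was at 12.3, 3.43, 5.79 and 7.31 CPM in FM and at 3.26, 6.68, 5.34 and 3.16 CPM in SBM. ICJ fish were at 5.71, 6.93, 3.65 and 3.11 CPM, and ACJ fish at 14.6, 11.5, 4.18 and 8.70 CPM. The highest fish were ACJ replicate 1 and FM replicate 1, and every pair of diets overlapped. Its log2 fold change was 1.09 ± 0.42 (SE) in ACJ|SBM (edgeR, adjusted p = 0.711) and 1.01 ± 0.42 in ACJ|ICJ (adjusted p = 0.871), and with the pancreatic level in the model it was 0.31 and 0.64.

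Msrb2, a methionine sulfoxide reductase that repairs oxidised methionine, lies on chromosome 29 (27798865 to 27802985) and was at 1.42, 0.714, 1.58 and 1.495 CPM in FM and at 0, 1.24, 1.23 and 0.105 CPM in SBM. In ICJ it was at 1.76, 5.11, 0.261 and 0 CPM and in ACJ at 2.85, 1.95, 0.131 and 5.73 CPM. High and low fish stood side by side in ICJ and in ACJ, with the lowest ACJ fish below every FM fish.

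**Figure D5:**
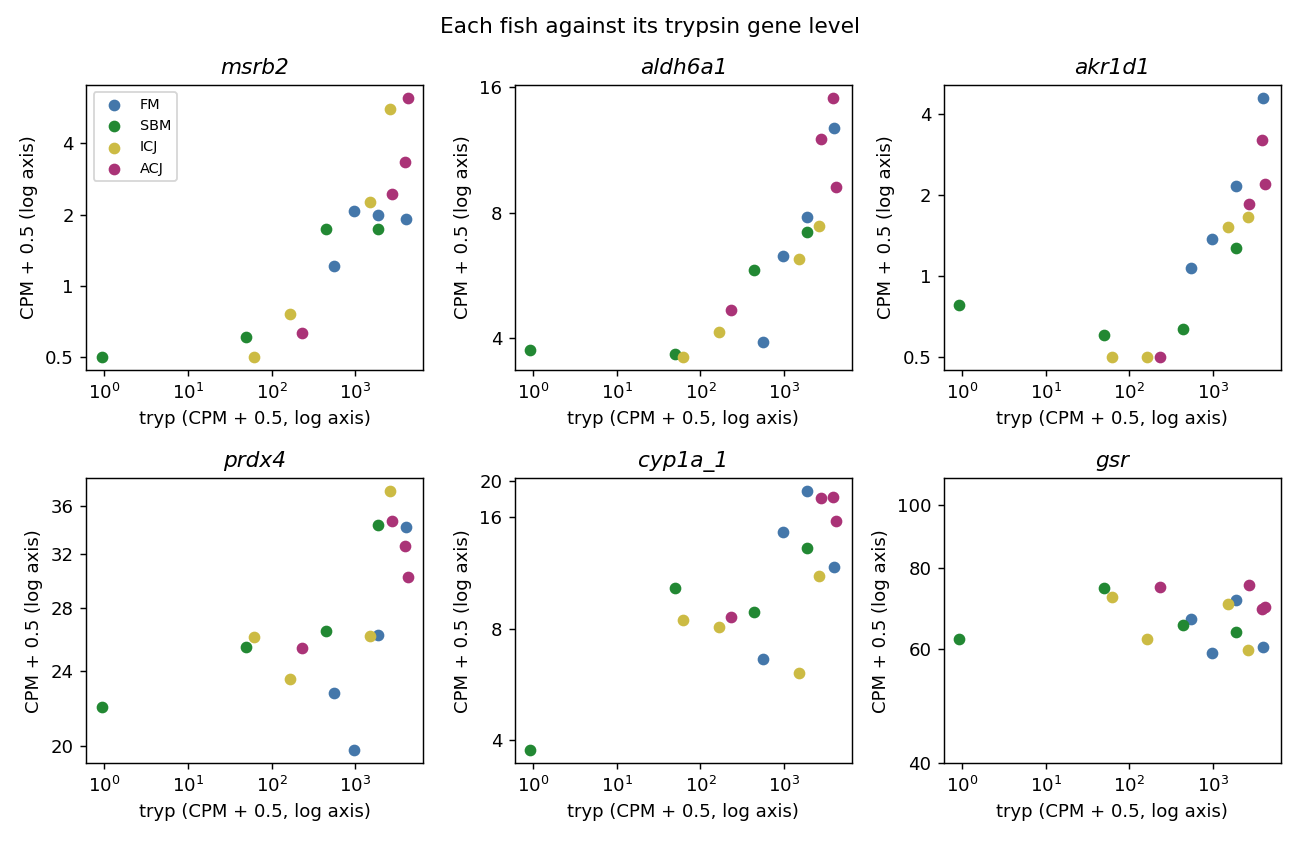
CPM + 0.5 of msrb2, aldh6a1, akr1d1, prdx4, cyp1a_1 and gsr in each of the 16 fish (y axes, logarithmic) against the level of the trypsin gene tryp in the same fish (x axes, CPM + 0.5, logarithmic), coloured by diet. Msrb2, aldh6a1 and akr1d1 are lower in the fish with the least tryp than in those with 1000 CPM or more. Fish between these can reach the upper values: FM replicate 3, at 968 CPM of tryp, has 1.58 CPM of msrb2, beside 1.42 in FM replicate 1. Gsr spans 58.6 to 74.7 CPM with no such order.

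The relation to the pancreatic level was tested for all genes in one edgeR model that also held the diets, with the mean log2(CPM + 0.5) of the 3 proteases as the added term. This term was chosen after the data were seen. Of the 36 genes, 3 were called, all with positive slopes, beside 1.09% of all genes. Msrb2 rose by 0.87 ± 0.12 log2 units (SE) per log2 unit of pancreatic level (adjusted p = 0.000206), akr1d1 by 0.70 ± 0.16 (adjusted p = 0.0275) and aldh6a1 by 0.22 ± 0.05 (adjusted p = 0.0142).

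Msrb2 kept its call under all 19 alternatives, which include leaving out each fish. Aldh6a1 lost it without ACJ replicate 3 (edgeR, slope 0.19, adjusted p = 0.0612), when 1 of the 36 genes was called in place of 3. Akr1d1 lost it in 11 of 19 alternatives, with adjusted p values up to 0.127. The 10 fish whose removal ended its call were FM replicates 1, 2 and 3, SBM replicates 2 and 4, ICJ replicates 2, 3 and 4, and ACJ replicates 1 and 3. Whether RNA of pancreatic cells in the samples carried these transcripts was not tested.

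Prdx4, the peroxiredoxin of the endoplasmic reticulum, had a slope of 0.08 ± 0.02 (edgeR, adjusted p = 0.0617). It was at 33.6, 22.3, 19.3 and 25.8 CPM in FM, at 21.5, 33.8, 26.0 and 25.0 CPM in SBM, at 25.6, 36.8, 23.1 and 25.6 CPM in ICJ, and at 32.1, 34.1, 24.9 and 29.7 CPM in ACJ. Its highest fish was ICJ replicate 2 and its lowest FM replicate 3. For cyp1a_1 the slope was 0.16 ± 0.05 (adjusted p = 0.269), and its lowest fish, at 3.26 CPM, was SBM replicate 1, which also had the least tryp.

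Within diets, over 16 fish, the Pearson correlation with the pancreatic level was 0.84 for msrb2 (Spearman rho 0.91), with a permutation p of 0.00216 adjusted over 72 relations. It was 0.79 for aldh6a1 (rho 0.81, permutation test, adjusted p = 0.00216), 0.74 for prdx4 (rho 0.76, adjusted p = 0.0206) and 0.68 for akr1d1 (rho 0.74, adjusted p = 0.0275). The 2 fish whose pancreatic level, after subtraction of diet means, lay farthest from the median were then left out. Without them r was 0.93, 0.87, 0.67 and 0.86, in the same order. For aldh7a1 r was 0.77 (permutation test, adjusted p = 0.0232) and rho 0.77 (adjusted p = 0.0605), and r was 0.81 without those 2 fish, while its edgeR slope of 0.04 ± 0.01 had an adjusted p of 0.284. The values are log2 CPM after subtraction of diet means.

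Aldh6a1 has a close neighbour among the 36 genes. Gstz1, a zeta class glutathione transferase that acts in tyrosine breakdown, lies 188 bases from aldh6a1 on chromosome 1. Gstz1 is on the reverse strand and aldh6a1 on the forward strand, so their starts face each other across this gap. Gstz1 ranged from 1.05 to 4.12 CPM, and its slope on the pancreatic level was 0.11 ± 0.06 (edgeR, adjusted p = 0.589). Reads were counted by strand, and those that overlap several genes were left out.

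Of 27 further genes taken by symbol for the Nrf2 and aryl hydrocarbon receptor pathways, 26 were tested and 1 was called in FM|SBM (background 0.432%). The tested genes had 11 positive and 15 negative values and a median log2 fold change of -0.03. Symbols were matched with any copy suffix, so a gene such as catb, taken in beside cata, may be another protein. In the other 6 comparisons 0 were called by edgeR's quasi-likelihood test. At an unadjusted p below 0.05 the counts were 4 in FM|SBM (background 14.7%), 4 in ICJ|FM (9.26%), 6 in ACJ|FM (14.9%) and 6 in soybean|FM (16.5%). They were 2 in ICJ|SBM (5%), 1 in ACJ|SBM (6.9%) and 2 in ACJ|ICJ (5.67%). The gene called was ahr1, a receptor gene, which was at 4.09, 2.14, 2.63 and 2.82 CPM in FM and at 5.38, 7.14, 7.12 and 6.22 CPM in SBM, with no overlap. It was lower in FM, at a log2 fold change of -1.15 ± 0.23 (SE; edgeR, adjusted p = 0.0350). Its call was lost without FM replicate 2, 3 or 4 and without SBM replicate 2, 3 or 4, with adjusted p values of 0.0729 to 0.116, and with the globin level in the model (adjusted p = 0.419). The other receptor copies were not called in FM|SBM. Ahr2b was at 34.6 ± 3.91 CPM in FM and 34.6 ± 2.57 CPM in SBM (SD, n = 4 each; edgeR, adjusted p = 0.994). Ahr2a was at 17.4 ± 1.76 and 14.7 ± 0.539 CPM (adjusted p = 0.541). Log2 fold changes were 0.47 for ahr and -0.43 for ahr1b. Which copy acts on cyp1a_1 was not tested. Cyp1a_1 was at 12.4 ± 5.09 CPM in FM and 8.54 ± 3.96 CPM in SBM (SD, n = 4 each), a log2 fold change of 0.53 ± 0.38 (adjusted p = 0.574).

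Levels of 3 other genes of the pathways, none of them called, are given as examples. Nfe2l1, a relative of Nrf2, was at 45.5 ± 2.86 CPM in FM, 43.3 ± 1.65 in SBM, 42.9 ± 1.62 in ICJ and 42.5 ± 3.31 CPM in ACJ (SD, n = 4 each). Srxn1, sulfiredoxin, which reactivates peroxiredoxins, was at 6.67 ± 0.709 CPM in FM and 7.39 ± 1.19 CPM in SBM (edgeR, adjusted p = 0.759). Blvrb, a biliverdin reductase that red cells also carry, was at 174 ± 50.4 CPM in FM and 91.7 ± 20.3 CPM in SBM (edgeR, adjusted p = 0.218).

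As a check of the tissue, the B cell genes cd79b and cd37 together were at 223 to 473 CPM, the T cell genes cd3e and lck at 102 to 133 CPM, and mpeg1 of macrophages at 428 to 1138 CPM. Zbtb46, the other tested gene of the macrophage list, was at 13.03 to 39.01 CPM, while marco was at or near 0. Of the neutrophil genes, csf3r was at 154 to 258 CPM and ncf1 at 44.4 to 171 CPM, and lyz was at 0. The liver genes looked for summed to at most 1.15 CPM.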

How the data were processed

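Spleen RNA of 16 fish was sequenced by the authors from stranded libraries, trimmed, aligned to ICSASG_v2 with HISAT2 2.1.0 and counted per gene with featureCounts (version 1.4.6-p1 in the submitters' notes, 1.5.1 in the table headers). The values the authors deposited are raw counts, 1 table per fish, for 79141 features. Counting used the reverse strand and left out reads with several matches or several genes, so genes with near-identical copies are counted on their unique parts only.

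Groups came from the sample labels. Genes passing edgeR's filterByExpr, 28930 in all, were scaled by TMM and fitted in one model of 16 fish with a mean per diet (edgeR 4.0.16 in R 4.3.3, robust glmQLFit and glmQLFTest), and 7 comparisons were tested with a call at Benjamini-Hochberg adjusted p below 0.05. The study ran SARTools with diet as the factor. CPM values are TMM-scaled, and the 0.5 CPM cut of the choice of genes used unscaled CPM. The standard error is the absolute log2 fold change divided by the square root of F. Fish were taken as independent, and p values measure the spread between these fish. A floor of 3 counts covers counting error only.

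The members and lists were chosen with earlier results of these data known. Named genes were the 3 with the smallest unadjusted p in each comparison and, for levels, the 2 with the highest FPKM in each role group, plus any called. Prdx6, sod2, txnrd2, gstz1 and the genes of the pathway list were named outside this rule, after their values were seen. The pathway list took 27 genes found by symbol with any copy suffix, and what each copy encodes was not checked. The exocrine symbols listed had no match, and tryp, ctrl and ctrb were chosen after the data were seen, as were the pancreatic and globin covariates. Permutation tests of correlations shuffled values within diets 100000 times, over 36 genes and 2 levels. Chromosome numbers came from RefSeq's gene table of Ssal_v3.1 through shared genes, for 29 sequences with at least 85.92% of genes on the chromosome assigned, and coordinates are those of the deposited tables. The code was tested on simulated data. Alternatives were DESeq2 1.42.0, the likelihood ratio test, RLE scaling, other filters, removal of hemoglobin genes, a replicate block, fits of 8 fish and each fish left out.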

Additional observations from a re-analysis of the deposited data

Results flagged for a closer look

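Of 100 groups of 4 fish (25 named genes in 4 diets), 1 held a fish that stood far from the others by Dixon's test, which flags about 1 in 20 groups by chance. The fish was FM replicate 1 for txndc9, at 4.98 CPM beside 3.43, 3.51 and 3.66 CPM in the other FM fish. Its gap to the nearest fish was 0.853 of the range of the group, above the 95% critical value for 4 fish.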

How the results depend on the processing

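The count of genes called was 0 in 130 of 133 values over the 7 comparisons and all alternatives. In many of these settings few or no genes were called over all genes, so 0 of the 36 says little there. In FM|SBM, for example, 9 of 29381 genes were called without FM replicate 3 and 5 of 29415 without FM replicate 4. Without FM replicate 1 the number was 670 of 29384. The exceptions came from leaving out 1 fish, where the count ranged from 0 to 1 in ACJ|FM (1 without FM replicate 1, which was gsta, and 1 without ACJ replicate 4, which was gstt2b) and from 0 to 1 in ACJ|ICJ (1 without ACJ replicate 4, gstt2b). Calls over all genes in ACJ|FM also rose there, from 68 of 28930 to 550 of 29384 without FM replicate 1 and to 221 of 29367 without ACJ replicate 4. In ACJ|ICJ, 1 of 29367 genes was called without ACJ replicate 4. Of 394 values for the 21 named differences, 391 kept their direction and their side of the threshold, 0 reversed and 3 newly passed it, the calls of gsta and gstt2b just given. All 21 were uncalled with all fish, so keeping their side of the threshold says little. Their sizes moved: akr1d1 in FM|SBM ranged from 0.97 to 3.76 and aldh6a1 in ACJ|SBM from 0.31 to 1.35. Of the 36 genes, 3 were called for the pancreatic level, with a range of 1 to 4 when each fish was left out and 1 without ACJ replicate 3. The causes were not tested. Same-numbered fish are different animals, and their deviations from diet means correlated between -0.233 and 0.314, so the numbers do not pair them. With the replicate block, 0 of the 36 genes were called in each comparison. Over all 28930 genes that block gave 110 calls in FM|SBM, 39 in ACJ|FM, 259 in soybean|FM and 0 in each other comparison. Ahr1 lost its call in FM|SBM with the block (edgeR, adjusted p = 0.0526), as it did with only the 8 fish compared (0.0793). Over all genes, DESeq2 called 737 in FM|SBM and 472 in ACJ|FM, beside 125 and 68 with edgeR's quasi-likelihood test. Depth limits the lowest genes: a count of 0, as akr1d1 and msrb2 had in 3 and 2 fish, allows up to 0.330 to 0.596 CPM over these libraries.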
